A study of Arabidopsis lyrata with 12 samples.

Results

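In young leaves of Arabidopsis lyrata accession MN47, 297 of the 24268 genes listed with an mRNA value carried trimethylated lysine 4 of histone H3 (H3K4me3), monomethylated lysine 27 (H3K27me1) and methylated cytosine (5mC), but not trimethylated lysine 27 (H3K27me3). That was 1.22% of listed genes. A gene was taken to carry a mark when 200 bp or more of its span, from listed start to listed end, lay in the authors' enriched domains of that mark, or all of a shorter span. Each group named below for comparison carried only the marks in its name, and so lacked H3K27me3 too, whereas all genes with a mark are taken whatever their other marks. All plants were of the one accession, untreated, grown in soil with 16 hours of light and 8 hours of dark at 22.5 °C. Of the 12 libraries, 2 were made for each of the 4 marks, 1 for mRNA and 3 from input DNA. The authors deposited 1 domain list per mark and 1 table of mean exon coverage per gene for the mRNA library, so no value below has a replicate error. Depth is unknown for every library. Exact (Clopper-Pearson) 95% intervals on shares of genes cover counting error only.

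H3K4me3 is a mark of active plant promoters and usually lies over the first part of a transcribed gene. H3K27me1 is deposited in Arabidopsis thaliana by ATXR5 and ATXR6 and is known from heterochromatin, where DNA methylation also silences transposable elements. In that species some long introns hold methylated transposable elements inside transcribed genes, and 5mC in the CG context alone is common in the bodies of active genes. The immunoprecipitation used here does not tell methylation contexts apart. Leaves hold many cell types, and domains from the same gene in different cells, or on the 2 copies of a gene, cannot be told apart from marks on the same chromatin. For mRNA likewise, fewer cells that express a gene and less RNA per cell cannot be told apart.

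The mark values chose these genes, so their base pairs, order and overlap are described without a test. The least covering of the 3 marks held 210 bp in the gene nearest to the minimum. In 16 of the genes it held less than 300 bp, with a median span of 2049 bp and a median mRNA coverage of 6.05. Just outside the rule, 20 genes had 150 to 198 bp of their least covering mark, with a median span of 4420 bp and a median coverage of 3.16. H3K27me3 covered some base pairs, under the minimum, in 1 of the 297 genes and none in the others. The 160 genes that carried H3K27me3 besides the other 3 marks were not counted among the 297.

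The genes were long. Their median span was 4537 bp (quartiles 2682 and 6372 bp, range 694 to 18564 bp), against 2972 bp in the 1050 genes with H3K4me3 and 5mC, 2831 bp in the 411 with H3K4me3 and H3K27me1, 2975 bp in the 350 with H3K27me1 and 5mC, 2263 bp in the 15362 with H3K4me3 alone and 2235 bp over all listed genes. Spans of at least 4 kb made up 57.2% of the genes (interval 51.4 to 62.9%), against 16.1% of all listed genes. A longer span has more room for 200 bp of each mark, so span is bound up with the rule. The part of the span under neither H3K27me1 nor 5mC had a median of 2444 bp, against 2425 bp in genes with H3K4me3 and 5mC, 1875 bp in genes with H3K4me3 and H3K27me1 and 2256 bp in genes with H3K4me3 alone. In genes with H3K27me1 and 5mC it was 300 bp. Outside these 2 marks the genes were, at the median, about as long as genes with H3K4me3 alone. Their lengths were more spread, with quartiles of 1182 and 3952 bp, against 1593 and 3211 bp.

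Each mark took up a part of the gene. H3K4me3 covered a median of 750 bp of a gene (quartiles 600 and 1009 bp), against 815 bp in genes with H3K4me3 and 5mC, 600 bp in genes with H3K4me3 and H3K27me1 and 792 bp in genes with H3K4me3 alone. H3K27me1 covered a median of 951 bp (quartiles 600 and 1800 bp), against 900 bp in genes with H3K4me3 and H3K27me1 and 1508 bp in genes with H3K27me1 and 5mC. 5mC covered a median of 1269 bp (quartiles 750 and 2400 bp), against 450 bp in genes with H3K4me3 and 5mC and 1808 bp in genes with H3K27me1 and 5mC. The genes thus held more 5mC than those with H3K4me3 and 5mC alone, and a similar amount of H3K4me3. As a share of the span, H3K27me1 or 5mC covered a median of 43.3%, against 88.3% in the 350 genes with these as their only marks.

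**Figure D1:**
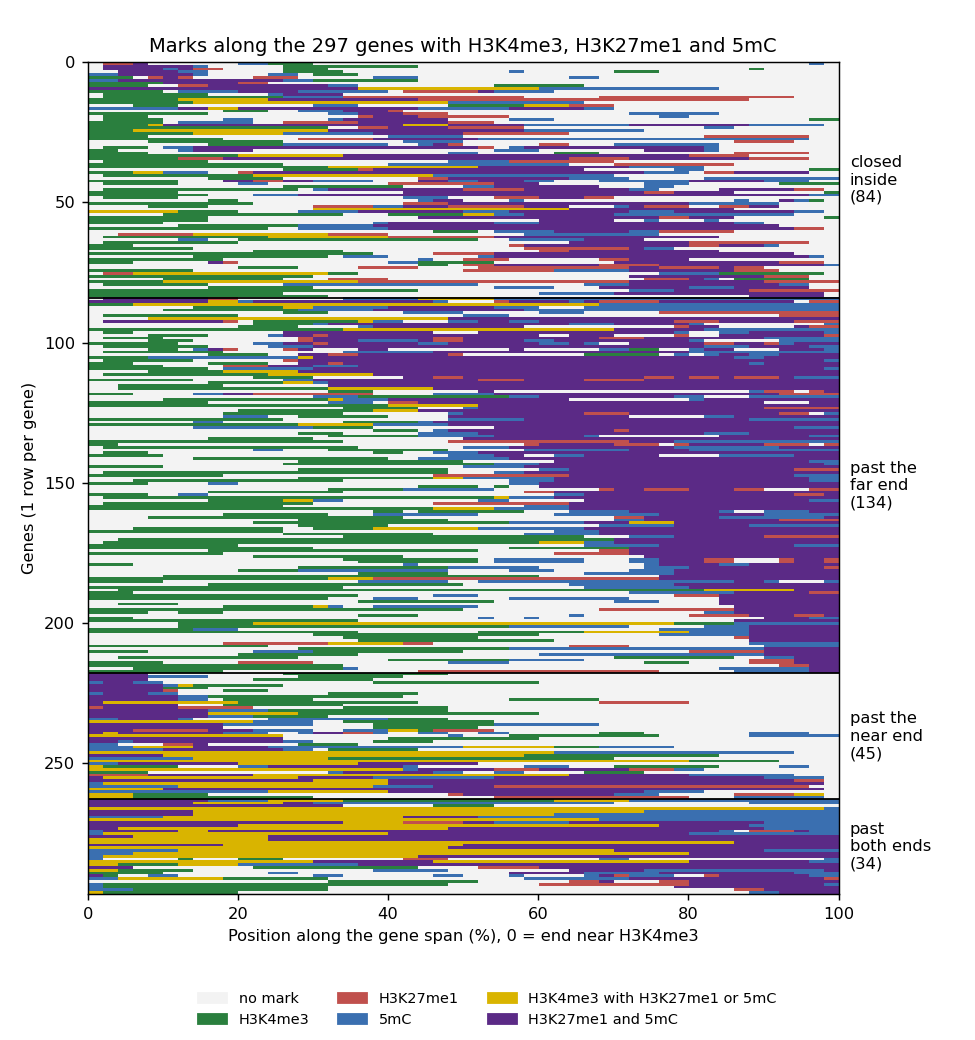
Each row is 1 of the 297 genes, scaled to the same width and turned so that the end nearer to H3K4me3 is at 0%; colours give the marks that cover at least 50% of each of 50 bins. Rows are grouped by whether the H3K27me1 and 5mC domains stay inside the span (84 genes) or run past the far end (134), the near end (45) or both ends (34), and H3K4me3 lies left of the joint stretches in most rows of the first 2 groups.

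The order of the marks was read from the end nearer to H3K4me3. Strand is not given in the gene table, so each gene was turned to start at the end nearer to the centre of its H3K4me3 base pairs. This is called the near end here, and it need not be the 5′ end. The turn alone puts the H3K4me3 centre in the first 50% of the span, so more of the span lies after it than before it, and marks placed with no regard to H3K4me3 would also mostly come after it. The centre of H3K4me3 came before those of both H3K27me1 and 5mC in 239 genes (80.5%, interval 75.5 to 84.8%), after both in 37 and between them in 21. Among all 457 genes with these 3 marks, with or without H3K27me3, it came first in 81.2%, a like share. How much of it is more than the turn gives was not tested. The H3K4me3 centre lay at a median of 24.5% of the span, that of H3K27me1 at 64.1% and that of 5mC at 63.5%. In 58 genes the H3K4me3 centre was within 10% of the span from the middle, where the turn is least clear.

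Between H3K27me1 and 5mC there was no fixed order. Their centres lay within 150 bp of each other in 119 genes. Domain edges lie on a grid of 150 bp for 5mC and 300 bp for H3K27me1, so smaller distances are not resolved. The 5mC centre was nearer to the H3K4me3 end by at least that distance in 103 genes, and the H3K27me1 centre in 75. The median distance between the centres was 225 bp (quartiles 75 and 525 bp, highest 3525 bp).

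H3K27me1 and 5mC lay on the same base pairs in nearly every gene. They shared at least 150 bp in 279 of the 297 (93.9%, interval 90.6 to 96.4%), against 95.8% of all 1060 genes with both marks. The coincidence was therefore near the level of any gene that carried the 2 marks. Of the H3K27me1 base pairs inside the genes, 81.7% were also 5mC, and 69.6% of the 5mC base pairs were also H3K27me1. In the 350 genes with these as their only marks the shares were 82.8 and 77.1%.

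Where one of the 2 marks lay wholly inside the other, 5mC was more often the wider. In 135 genes (45.5%) all H3K27me1 base pairs lay inside wider 5mC, whereas the reverse held in 28. The marks covered the same base pairs in 23 genes, each reached past the other in 94, and 17 had none in common. The shared stretch had a median of 801 bp (quartiles 450 and 1500 bp) and reached 9150 bp. How often 5mC was the wider was not counted in other genes. The 350 with only these 2 marks also had more 5mC, with a median of 1808 bp, against 1508 bp of H3K27me1.

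The shared stretch lay in the middle of the gene in fewer cases than past it. With the span cut into 3 equal segments, its centre fell in the middle segment in 91 of the 279 genes (32.6%, interval 27.1 to 38.5%), in the far segment in 132 and in the near segment in 56. Of all 1015 genes in which the 2 marks coincided, with or without H3K4me3 and H3K27me3, 51.8% had it in the middle segment. Among the 155 of these with all 4 marks it was 41.9% (interval 34.1 to 50.1%). Among the 331 with H3K27me1 and 5mC as their only marks it was 67.4%. These last had most of their span under the marks, and a stretch over the whole span has its centre in the middle. Stretches in the middle segment were the longest, with a median of 1242 bp shared, against 897 bp in the far segment and 600 bp in the near segment. The turn puts H3K4me3 in the near part of the span, mostly apart from H3K27me1 and 5mC. Part of the surplus of the far over the near segment thus follows from the turn, and how much was not tested.

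**Figure D2:**
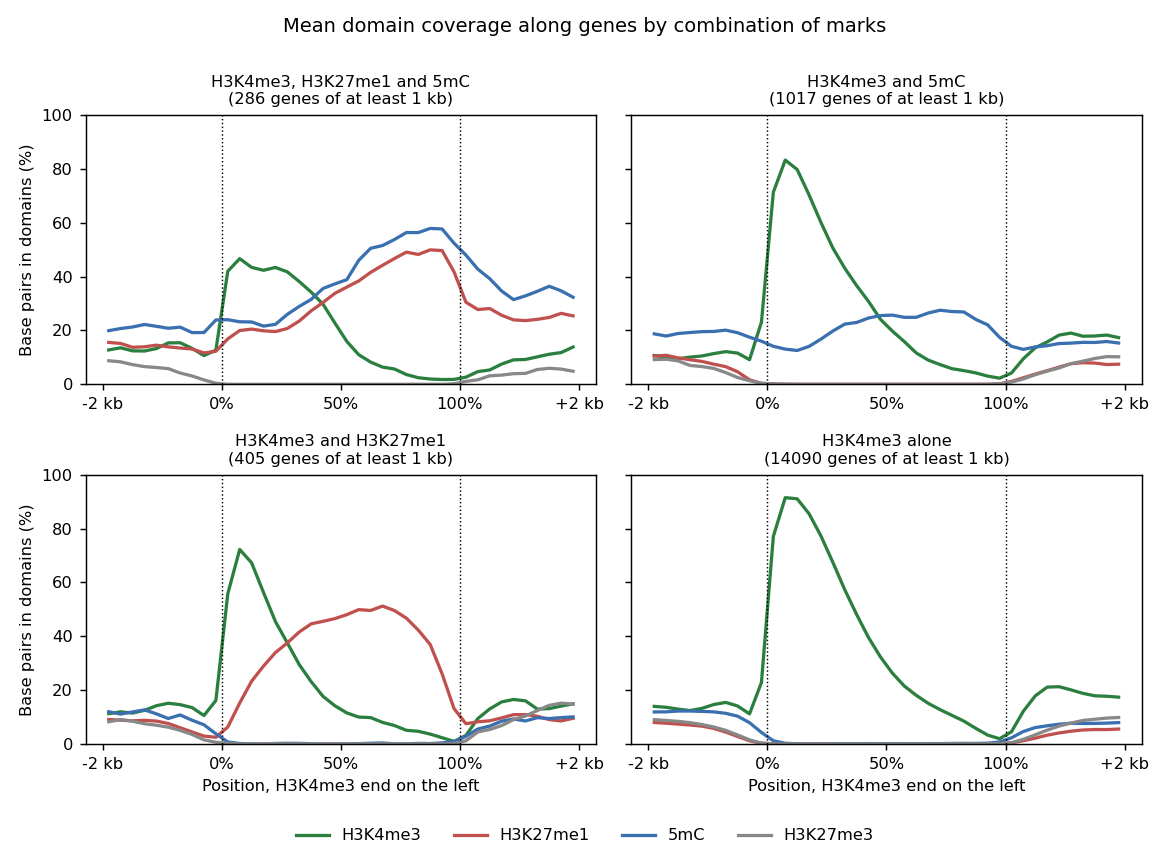
Mean percent of base pairs in domains along genes of at least 1 kb in 20 bins of the span and over 2 kb outside each end in 200-bp bins, with the H3K4me3 end on the left, for 4 combinations of marks. In the genes with all 3 marks (top left) H3K27me1 and 5mC climb together to 49.9 and 57.9% between 85 and 90% of the span, and H3K4me3 peaks at 46.7%, lower than in the other panels.

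Averaged over the 286 genes of at least 1 kb, cover by H3K27me1 and 5mC rose towards the far end and had no peak in the middle. The turn puts H3K4me3 in the near part of the span, and it mostly lay apart from these marks. Part of the rise thus follows from the turn, and how much was not tested. A mean over genes does not show whether single genes had a stretch in the middle. H3K27me1 covered 20.0% of base pairs between 5 and 10% of the span and 49.9% between 85 and 90%, and 5mC 23.2 and 57.9%. In genes with H3K4me3 and 5mC, 5mC was highest between 70 and 75% of the span, at 27.5%. In genes with H3K4me3 and H3K27me1, H3K27me1 was highest between 65 and 70%, at 51.2%, and had dropped to 13.1% in the last 5% of the span, where the genes with all 3 marks still had 41.8%. Past the far end, the genes with all 3 marks had H3K27me1 over 26.0% and 5mC over 36.7% of the next 2 kb. These values were 5.70 and 14.8% for H3K4me3 with 5mC, 9.30 and 8.01% for H3K4me3 with H3K27me1, and 3.70 and 6.55% for H3K4me3 alone. Before the near end they were 13.7 and 21.0% in the genes with all 3 marks, against 6.94 and 18.7%, 6.70 and 9.85%, and 5.09 and 10.6% in the same 3 groups. A group chosen for under 200 bp of a mark inside the span leaves out most genes that its domains enter from outside. The rule thus lowers that mark beside the gene. In genes with H3K4me3 and 5mC, H3K27me1 covered 1.05% of the first 200 bp past the far end and 7.65% at 1000 to 1200 bp.

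Many of the stretches ran out of the gene. All H3K27me1 and 5mC domains that touched the gene ended inside its span in 84 of the 297 genes (28.3%, interval 23.2 to 33.8%), against 24.4% of all 1060 genes with the 2 marks. These hold the 350 with no other mark, of which 15.7% were closed, and the 160 with all 4 marks, of which 38.1% were. In genes with H3K4me3 and 5mC the share was 68.8%, and in genes with H3K4me3 and H3K27me1 it was 85.2%. In these last groups the domains of 1 mark, rather than of 2, had to be present and to stay inside. In 134 of the 297 genes (45.1%) domains ran past the far end alone, in 45 past the near end alone and in 34 past both. The far end alone was crossed in 14.7% and the near end alone in 13.4% of genes with H3K4me3 and 5mC, and in 9.73 and 4.38% of genes with H3K4me3 and H3K27me1. With 150 bp allowed at each end, 37.4% of the genes counted as closed.

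The 4 layouts are given with their span and mRNA; where the shared stretch lies follows in part from the end its domains cross. Genes with closed domains had a median span of 5134 bp, and the shared stretch was centred at a median of 60.6% of the span. In 37 of the 74 closed genes whose marks coincided, it lay in the middle segment. Genes crossed at the far end had a median span of 4708 bp and the shared stretch at 79.6%. Those crossed at the near end had 4660 bp and 12.6%, and H3K4me3 overlapped H3K27me1 or 5mC in 25 of these 45. Genes crossed at both ends were short, with a median of 1720 bp, and H3K27me1 or 5mC covered a median of 100% of the span. H3K4me3 overlapped the other marks in 26 of these 34 genes. Median mRNA coverage was 4.02 (quartiles 2.06 and 6.93) in closed genes, 5.92 (3.25 and 12.0) with the far end crossed, 5.40 (2.92 and 9.42) with the near end crossed and 4.56 (2.34 and 7.95) with both. The quartile ranges overlapped throughout, and the differences were not tested.

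H3K4me3 kept apart from the other 2 marks in most of the genes. It shared no base pair with either in 198 genes (66.7%), against 64.3% of all 2140 genes with H3K4me3 and at least 1 of the other 2 marks. In these 198 genes the gap between them had a median of 450 bp (quartiles 150 and 1050 bp), and in 34 the domains met edge to edge. In 38 genes (12.8%) all H3K4me3 base pairs lay under H3K27me1 or 5mC. The 99 genes with overlap were shorter, with a median span of 2376 bp, against 5115 bp in the 198 without. Their median coverage was 4.21, against 5.29.

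H3K4me3 itself often lay well inside the gene. Spans reached 2 kb in 246 genes, and 105 of these (42.7%, interval 36.4 to 49.1%) had no H3K4me3 within 500 bp of either end. Among all 11637 genes of that length with H3K4me3 the share was 5.69%. It was 8.81% of 795 with H3K4me3 and 5mC, 9.04% of 332 with H3K4me3 and H3K27me1, and 2.21% of 9176 with H3K4me3 alone. Genes with H3K4me3 and H3K27me3, such as those with all 4 marks, are among the 11637 but were not counted apart. Of the 662 genes with the trait, 105 had all 3 marks without H3K27me3. The other groups without H3K27me3 held 70, 30 and 203, in the order given. The rest of the 662 all carried H3K27me3 with H3K4me3. The counts put the share among such genes above 9.04% and below 42.7%, so the trait was not particular to genes without H3K27me3. Whether those with all 4 marks share it is not shown. The difference from the 3 groups without H3K27me3 was found in each class of span. Between 2 and 4 kb it was 31.6%, against 5.60, 8.96 and 1.92% in these 3 groups. Between 4 and 8 kb it was 42.4%, against 14.6, 8.41 and 3.11%, and at 8 kb and above 65.8%, against 12.2, 15.4 (13 genes) and 3.57%. H3K4me3 was found at both ends in 8 of the 246 genes (3.25%), against 6.29, 5.72 and 5.79% in these 3 groups.

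**Figure D3:**
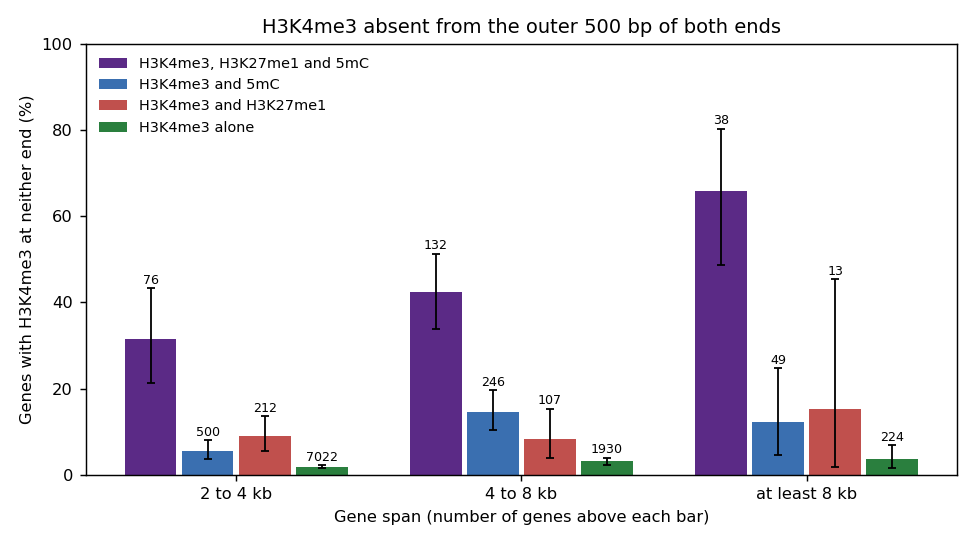
Percent of genes of at least 2 kb with no H3K4me3 in the outer 500 bp of either end, by class of span and combination of marks; bars give the share, error bars the exact 95% interval for counting error and the numbers the count of genes. The genes with all 3 marks stand highest in each class, at 31.6, 42.4 and 65.8%.

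In the 105 genes with inner H3K4me3, the mark began a median of 1392 bp from the near end (quartiles 947 and 2009 bp). In 45 of them at least 150 bp of H3K27me1 or 5mC lay between the near end and H3K4me3, against 36 of 70 such genes with H3K4me3 and 5mC and 11 of 30 with H3K4me3 and H3K27me1, so this is not particular to them. Their median coverage was 5.93, against 5.03 in the 141 others of at least 2 kb, and their median span 5390 bp, against 4861 bp. A listed gene that overlapped the span was present in 5 of the 105. Whether the span as annotated starts where transcription starts in the leaf was not tested.

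**Figure D4:**
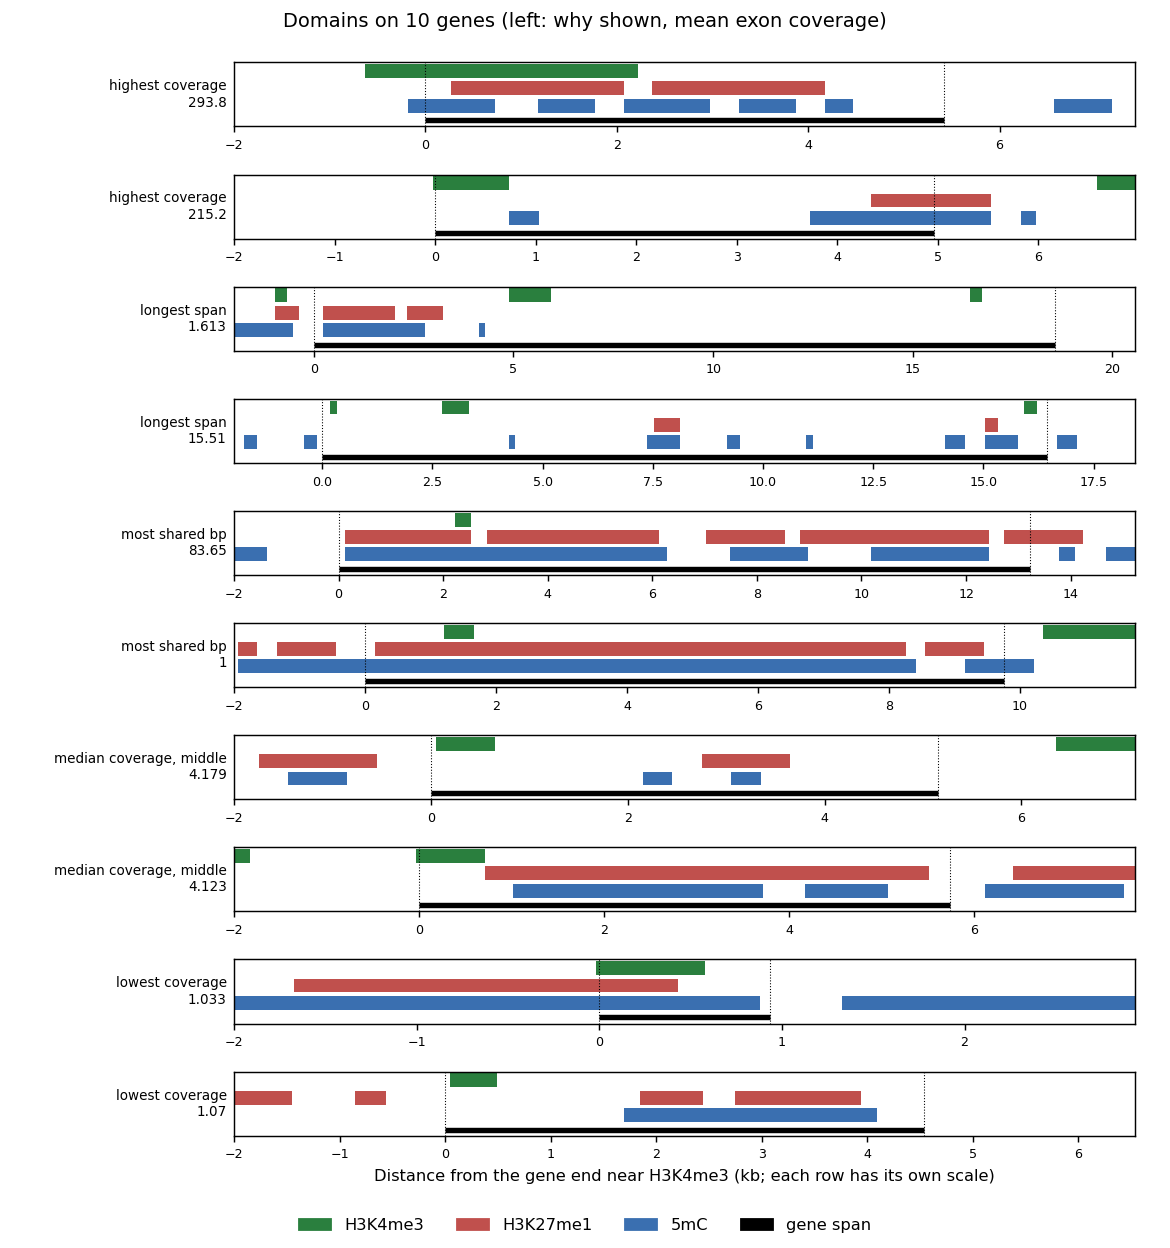
Domains of the 3 marks on 10 genes (black bars), with the end near H3K4me3 at 0 kb and up to 2 kb outside; each row has its own scale in kb and names on the left why the gene is shown and its mean exon coverage. The 2 genes labelled as of median coverage were picked among those with the shared stretch in the middle segment. In both, H3K4me3 stands at the near end and H3K27me1 and 5mC overlap further in, while the gene with a coverage of 293.8 has all 3 marks over one stretch.

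Single genes show these layouts. The files pair no identifier with a gene name, so genes are given by position, and the 2 with the highest coverage and the 2 with the longest span also by identifier. A gene on scaffold 1 (4052648 to 4057799) had a coverage of 4.18, the median of the genes whose marks coincide in the middle segment. Its H3K4me3 ran from 53 to 653 bp from the near end, and H3K27me1 from 2753 to 3653 bp. The 5mC domains there lay at 2153 to 2453 and 3053 to 3353 bp, the second of them wholly inside H3K27me1. A gene on scaffold 8 (10658583 to 10664321) with a coverage of 4.12 had H3K4me3 over the first 718 bp and 1 H3K27me1 domain from there to 5518 bp, with 3600 bp of 5mC inside it. In both genes, H3K4me3 was at one end and the joint stretch was closed inside the span.

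AL3G46350 (scaffold 3, 20545069 to 20550030) had the second highest coverage, 215.2. H3K4me3 covered its first 732 bp, and H3K27me1 and 5mC shared the last 630 bp and both ran past the far end, to 5532 bp from the near end. AL5G16780 (scaffold 5, 3992128 to 3997542) had the highest, 293.8, and another layout. Its H3K4me3 domain of 2850 bp reached 2223 bp into the gene, and all of these base pairs lay under H3K27me1 or 5mC. It was 1 of the 38 genes in which H3K4me3 lay wholly under the other marks.

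The longest gene, AL2G19040 (scaffold 2, 7750166 to 7768729, 18564 bp), had a coverage of 1.61. H3K27me1 and 5mC shared 2250 bp between 229 and 2779 bp from the near end, before the wider H3K4me3 domain at 4879 to 5929 bp. The other H3K4me3 domain lay at 16429 to 16729 bp. AL5G18670 (scaffold 5, 5510372 to 5526810, 16439 bp) had a coverage of 15.5 and 3 H3K4me3 domains. Its H3K27me1 domains, at 7529 to 8129 and 15029 to 15329 bp, both lay wholly inside 5mC. The 2 longest genes therefore carried the marks as separate islands, and together these took up less of the span than in most members.

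The 2 genes with the most shared base pairs differed in mRNA. One on scaffold 1 (17547104 to 17560332) shared 9150 bp and had a coverage of 83.7, with a single H3K4me3 domain of 300 bp lying wholly under H3K27me1 and 5mC. The other, on scaffold 5 (1213944 to 1223698), shared 8400 bp and was listed at exactly 1, the lowest value of the table, with an H3K4me3 domain of 450 bp also wholly under them. Long shared stretches were thus seen at either level of mRNA. Of the 2 genes with the lowest coverage above 1, one on scaffold 5 (11761298 to 11762230) had 1.03 and a span of 933 bp, crossed by all 3 domain types at the near end. The other, on scaffold 7 (2358909 to 2363445), had 1.07, H3K4me3 at 45 to 495 bp and 2 H3K27me1 domains between 1845 and 3945 bp, both wholly inside 5mC. H3K4me3 at one end and a closed joint stretch further in were also the layout of the 2 genes of median coverage.

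Median mRNA coverage of the 297 genes was 5.03 (quartiles 2.56 and 9.72, highest 293.8), against 7.02 over all listed genes. It was above the median of all listed genes in 105 of the 297 (35.4%, interval 29.9 to 41.1%), against 50% of all by definition. The share was 64.5% of genes with H3K4me3 and 5mC, 13.1% with H3K4me3 and H3K27me1, 9.43% with H3K27me1 and 5mC and 65.2% with H3K4me3 alone. The value was exactly 1 in 13 of the 297 genes (4.38%, interval 2.35 to 7.37%), against 8.23% of all listed genes. It was exactly 1 in 0.952% of genes with H3K4me3 and 5mC, 11.2% with H3K4me3 and H3K27me1, 41.1% with H3K27me1 and 5mC and 0.872% with H3K4me3 alone. Genes are not replicates and there was 1 mRNA library, so no p-value is given.

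**Figure D5:**
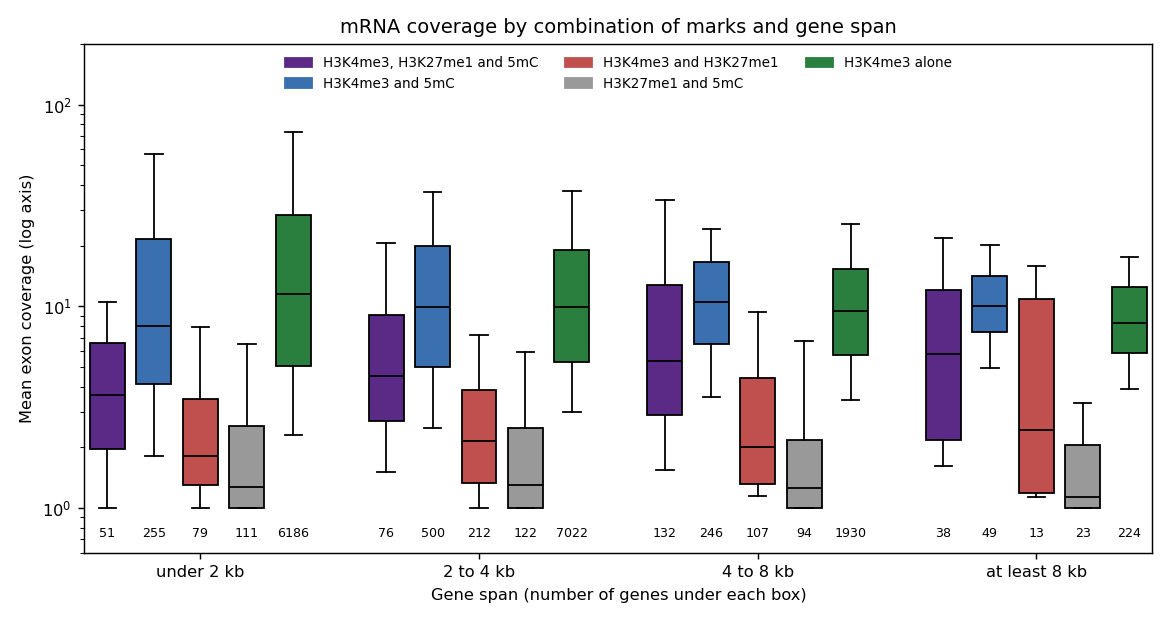
Mean exon coverage (log axis) in 4 classes of gene span for 5 combinations of marks; boxes show the quartiles and median, whiskers the 10th and 90th percentiles, and the number of genes stands under each box. In every class the median of the genes with all 3 marks, from 3.64 to 5.78, lies below that of genes with H3K4me3 and 5mC and above that of genes with H3K4me3 and H3K27me1.

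The median lay between those of the 2 groups with H3K4me3 and 1 other mark in each class of span. In genes under 2 kb the median was 3.64 (51 genes), against 7.98 with H3K4me3 and 5mC, 1.82 with H3K4me3 and H3K27me1, and 11.5 with H3K4me3 alone. Between 2 and 4 kb it was 4.50 (76 genes), against 9.89, 2.14 and 9.92 in the same groups. Between 4 and 8 kb it was 5.37 (132 genes), against 10.5, 2.00 and 9.47. At 8 kb and above it was 5.78 (38 genes), against 10.1, 2.43 and 8.24. Quartile ranges were wide, 2.89 to 12.7 in the class of 4 to 8 kb, and overlapped those of the neighbouring groups.

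The same held at like amounts of H3K4me3. With 200 bp to under 600 bp of H3K4me3, the genes had a median coverage of 2.76 (73 genes), against 4.96 with H3K4me3 and 5mC, 1.60 with H3K4me3 and H3K27me1 and 5.06 with H3K4me3 alone. With 600 bp to under 900 bp it was 5.17 (117 genes), against 8.80, 2.36 and 9.37. With 900 bp or more it was 6.49 (107 genes), against 13.4, 3.40 and 14.6. Coverage was higher with more H3K4me3 in each of the 4 groups.

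Within the 297 genes, coverage was higher with more H3K4me3 and lower where more of the span was under the other marks, but went little with the base pairs of those marks. Across the genes, which share 1 library, the Spearman correlation of coverage was 0.340 with H3K4me3 base pairs and 0.138 with span. It was -0.0807 with H3K27me1 base pairs, 0.00748 with 5mC base pairs and -0.00206 with the shared base pairs. Over quartiles of H3K4me3 outside the other 2 marks, from the least to the most, median coverage was 2.68, 3.93, 6.19 and 7.85. Median span also differed over these quartiles, at 1802, 4797, 4844 and 5424 bp. In the genes ranked by how much of the span H3K27me1 or 5mC covered, from 7.27 to 100%, the 4 quartiles had medians of 6.50, 5.67, 4.14 and 3.67. The quartile with the largest share also had the shortest genes, with a median span of 2359 bp, against 4633 to 4940 bp in the other 3. The 18 genes without a shared stretch of 150 bp had a median of 4.55, against 5.08 in the 279 with one.

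The domains on these genes had a score per bp near the median of their list, and the 5mC domains were wider. The score is the authors' value per domain, and what it counts is not stated. H3K27me1 domains that touched the genes (388) had a median width of 900 bp and a median score per bp of 0.220, against 1200 bp and 0.212 in the whole list. The 483 on genes with H3K4me3 and H3K27me1 had 900 bp and 0.188. For 5mC, the 498 domains had 1050 bp and 1.23, against 600 bp and 1.12 in the whole list, and those on genes with H3K4me3 and 5mC had 450 bp and 1.23. H3K4me3 domains (336) had 750 bp and 1.18, against 750 bp and 1.23 in the whole list, 900 bp and 1.37 on genes with H3K4me3 alone and 600 bp and 0.793 on genes with H3K4me3 and H3K27me1. Single domains touched more than 1 of the genes in 4, 6 and 8 cases for H3K4me3, H3K27me1 and 5mC, so nearly all of the genes had domains of their own.

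The genes stood in surroundings rich in H3K27me1 and 5mC. Over 25 kb on either side, outside the span, the median cover was 16.2% for H3K27me1 and 23.4% for 5mC. In genes with H3K4me3 and 5mC it was 10.2 and 15.6%, in genes with H3K4me3 and H3K27me1 7.20 and 10.2%, in genes with H3K27me1 and 5mC 20.4 and 28.8%, and over all listed genes 7.41 and 11.4%. The next listed gene lay a median of 3022 bp past the far end and 2097 bp before the near end, against 1374 bp on either side over all listed genes. Without overlapping genes, the gap to the nearer of the 2 had a median of 962 bp. That gap was 900 bp in genes with H3K27me1 and 5mC, 374 bp with H3K4me3 and 5mC, 308 bp with H3K4me3 and H3K27me1 and 384 bp over all. The next listed gene carried H3K27me1 in 16.5% of cases at the far end and 18.3% at the near end, where 7.97% of all listed genes did. The span of 20 of the genes (6.73%) overlapped another listed gene, against 2.35% of all, and marks and reads there cannot be told apart between the 2. Of the 297, 292 lay on the 8 main scaffolds, where they made up from 0.859% (scaffold 3) to 1.43% (scaffold 4) of listed genes, and 12 pairs were neighbours.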

How the data were processed

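The members and the comparison groups were chosen with earlier results of these data known. Groups of libraries come from the sample titles. The authors deposited 1 domain list per mark with a whole-number score, made with Bowtie and SICER per the submitters' processing notes; versions, settings, build, pooling and what the score counts are not stated in the labels or files. They also deposited a coverage signal per gene for the mRNA library, the mean over exons, with no stated normalization and a lowest value of exactly 1. Depth is unknown, so nothing was corrected for it. Exon positions and strand are not given, and input DNA was not analysed here.

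Domain starts count from 0 and ends include the last base; coordinates are printed counting from 1 as deposited. Base pairs per mark were counted in each span with Python 3.11.15, pandas 2.3.3 and numpy 2.4.6, and intervals with scipy 1.17.1. Domain edges lie on a grid of 150 bp (H3K4me3, 5mC) or 300 bp (H3K27me1, H3K27me3). Turning, overlap and layout were tested on simulated data. No p-value was computed. The RefSeq table (34365 genes) matched 0 identifiers, so no leaf marker or other gene could be looked up by name. Other minima, domain sets, gene sets and definitions were tried. Named genes are the 2 with the highest coverage and the 2 longest. By position are given the 2 with the most shared base pairs, the 2 nearest the median coverage of those coinciding in the middle segment, and the 2 lowest above 1.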

Additional observations from a re-analysis of the deposited data

How the results depend on the processing

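Values were recomputed with other minima, domains and genes; a share or median counts as moved when it left its exact 95% interval (for medians, that of the ranks), and a count when it changed over 1.5 times. Of the recomputed values, 44 stayed and 22 moved. With a minimum of 500 bp, 191 genes remained in the combination, with a median span of 5170 bp, a median coverage of 5.94 and 98.95% coinciding. Where each mark had to take up 50% or more of a gene, 11 genes had the combination. Their median span was 1248 bp and median coverage 6.37, H3K4me3 came first in 54.5%, 100% coincided (72.7% in the middle segment), and 0% had H3K4me3 apart or closed domains. Marks that each take up that much of a gene nearly have to overlap. With the top 50% of domains by score there were 86 genes, with 5417 bp, a coverage of 6.84, 98.8% coinciding and 72.1% with H3K4me3 apart. With 300 bp needed to coincide the share was 86.9%. With the central 50% of the span as the middle, 47.3% of stretches lay in it, and with spans widened by 150 bp, 37.4% of genes were closed. Among genes with the H3K4me3 centre in the outer 40% of the span, a setting chosen after seeing the data, the mark came first in 87.4%, as that choice leaves more of the span after it. With minima of 100, 300 and 500 bp, 50% of the span and the top 50% of domains, the median coverage lay below that of genes with H3K4me3 and 5mC and above that of genes with H3K4me3 and H3K27me1. At 50% of the span the interval of the median, 2.85 to 13.9 for the 11 genes, took in the 8.64 of genes with H3K4me3 and 5mC. With the top 50% of domains, only 20 genes had H3K4me3 and H3K27me1. The share with H3K4me3 at neither end (recomputed after seeing the data) was 41.7 to 45.0% in the settings other than the one at 50% of the span, which left 1 gene of 2 kb. No paired analysis was possible because each mark has 1 list and the mRNA 1 library. Depth is unknown, so domains missed at low depth cannot be told from absent ones.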
